A study of Danio rerio with 12 samples.

Results

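The brains of zebrafish that had won a fight were compared with those of zebrafish that had met no other fish, across all genes on the array. The comparison used 6 of the 12 arrays of the study, the 3 labelled Winner and the 3 labelled Isolation. All fish were of the AB strain and wild type, and each had been kept alone for 5 days beforehand. Winners then fought a real opponent and won, and isolated fish stayed without social contact. The whole brain was sampled 30 min into the manipulation. The 6 other arrays, 3 of losers of real fights and 3 of fish that fought their own mirror image, helped to estimate the spread and are compared with winners at the end. Neither the sex of the fish on an array nor the number of brains behind it is given in the labels. The p-values therefore measure the spread between these samples, which may be technical.

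A fight between zebrafish ends with one fish dominant and the other subordinate. Neurons that fire strongly switch on immediate early genes within minutes, and the proteins of these genes then act on slower targets at synapses and in the nucleus. The adult zebrafish brain also keeps dividing progenitor cells along its ventricles, many of them radial glia, in which Notch signalling and SoxB1 and Her factors hold back neuronal differentiation. A sample of the whole brain mixes all of these cells, so fewer cells of a type and less RNA per cell cannot be told apart.

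Each array gave a signal intensity for 15502 probe sets, which stood for 8793 genes with a single symbol. The median intensity of the 6 arrays lay between 95.8 and 104. Log2 intensities correlated at 0.957 to 0.967 among winners, 0.971 to 0.977 among isolated fish and 0.936 to 0.971 between the groups. The median log2 difference over all probe sets, winners minus isolated fish, was 0.01. It followed brightness, from 0.11 in the dimmest eighth of probe sets to -0.09 in the fifth eighth and 0.11 in the brightest. The bacterial controls added before hybridization read 10.48 ± 0.25 (log2, SD, n = 3) in winners and 9.37 ± 0.12 in isolated fish, a 2.16-fold difference with no overlap. The poly-A controls added to the RNA differed 1.29-fold and the cre controls 1.24-fold, in the same direction. Exact permutation gave p = 0.1 for each kind of control, two-sided, the smallest value that 3 against 3 arrays allow. The difference between 3 prime and 5 prime GAPDH signal, a sign of RNA integrity, was 0.69 ± 0.08 in winners and 0.72 ± 0.09 in isolated fish (exact permutation p = 0.7). Of markers of brain cells, 6 of 6 neuronal, 5 of 5 radial glial and 4 of 4 oligodendrocyte ones stood above the limit of the dimmest 25% of probe sets (log2 5.02) on all 6 arrays. The same held for 5 of 6 skeletal muscle, 4 of 4 epidermal and 4 of 4 erythrocyte markers, so this limit does not separate brain from these tissues. None of the pituitary markers (0 of 5) or of the pineal and retinal markers (0 of 5) stood above it on all 6 arrays.

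**Figure D1:**
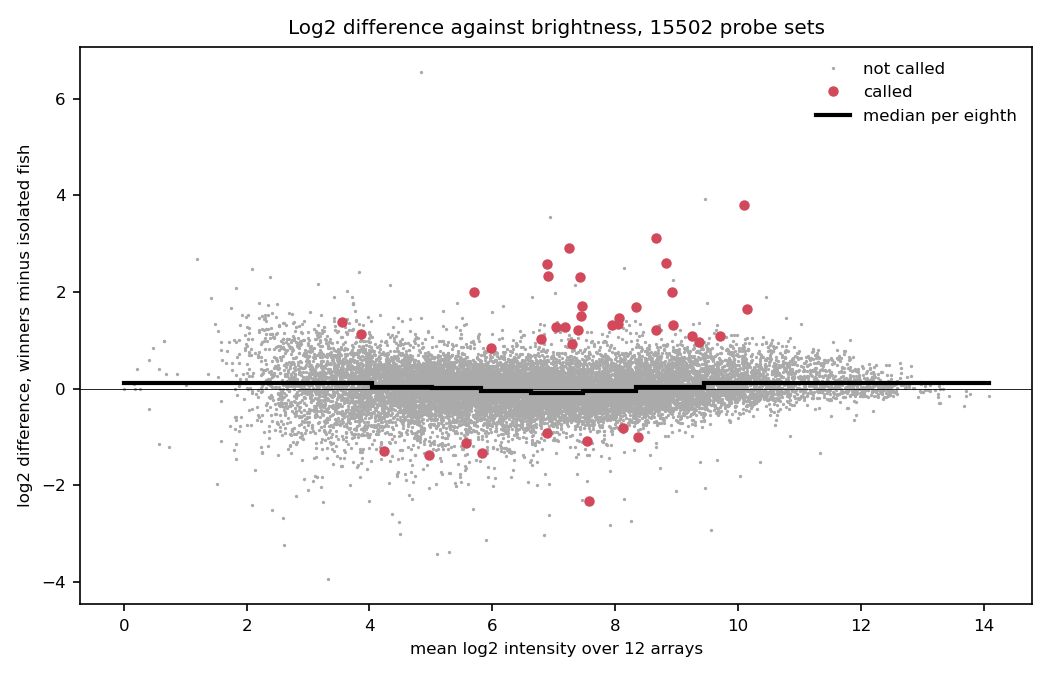
Log2 difference of each of 15502 probe sets (winners minus isolated fish, 3 arrays each) against its mean log2 intensity over 12 arrays. Red points are the 38 probe sets called at an adjusted p under 0.05, and black lines are the medians of the 8 brightness eighths, which run between -0.09 and 0.11.

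Few genes passed the test between winners and isolated fish. At a Benjamini-Hochberg adjusted p under 0.05 in limma, 29 probe sets were higher in winners (0.187% of those tested) and 9 were lower (0.0581%), together 0.245%. They named 23 genes that rose and 6 that fell, and 6 further probe sets carried no gene symbol. For none of the 38 did the groups overlap, and the same held for 23.8% of all probe sets. Immediate early genes made up 12 of the 29 named genes, with log2 differences of 1.08 to 3.79, led by the neuronal activity factor npas4a. The other 17 genes, 11 higher and 6 lower, are the main subject below. The count rested on single arrays: it was 16 and 15 without isolated array 1 or 2, 18 and 17 without winner array 1 or 2, 16 and 24 without mirror fighter array 1 or 3, and 19 and 25 without loser array 1 or 2. With the level of the hybridization controls as a covariate no probe set was called by limma (0, with 1579 at an unadjusted p under 0.05, against 3035 or 19.6% of probe sets without it), and since these controls did not overlap between the groups, group and control level cannot be told apart. The split of calls by direction moved with the processing, from 29 higher and 9 lower to 26 and 4 after quantile normalization and 31 and 2 after median centring. It was 33 higher and 32 lower with 32 added before log2, 32 and 27 without the dimmest 25% of probe sets, and 32 and 18 with trend and robust moderation. Fitted on the winner and isolated arrays alone, limma called 3 probe sets, all higher, with 2612 at an unadjusted p under 0.05. That of npas4a was among the 3.

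**Figure D2:**
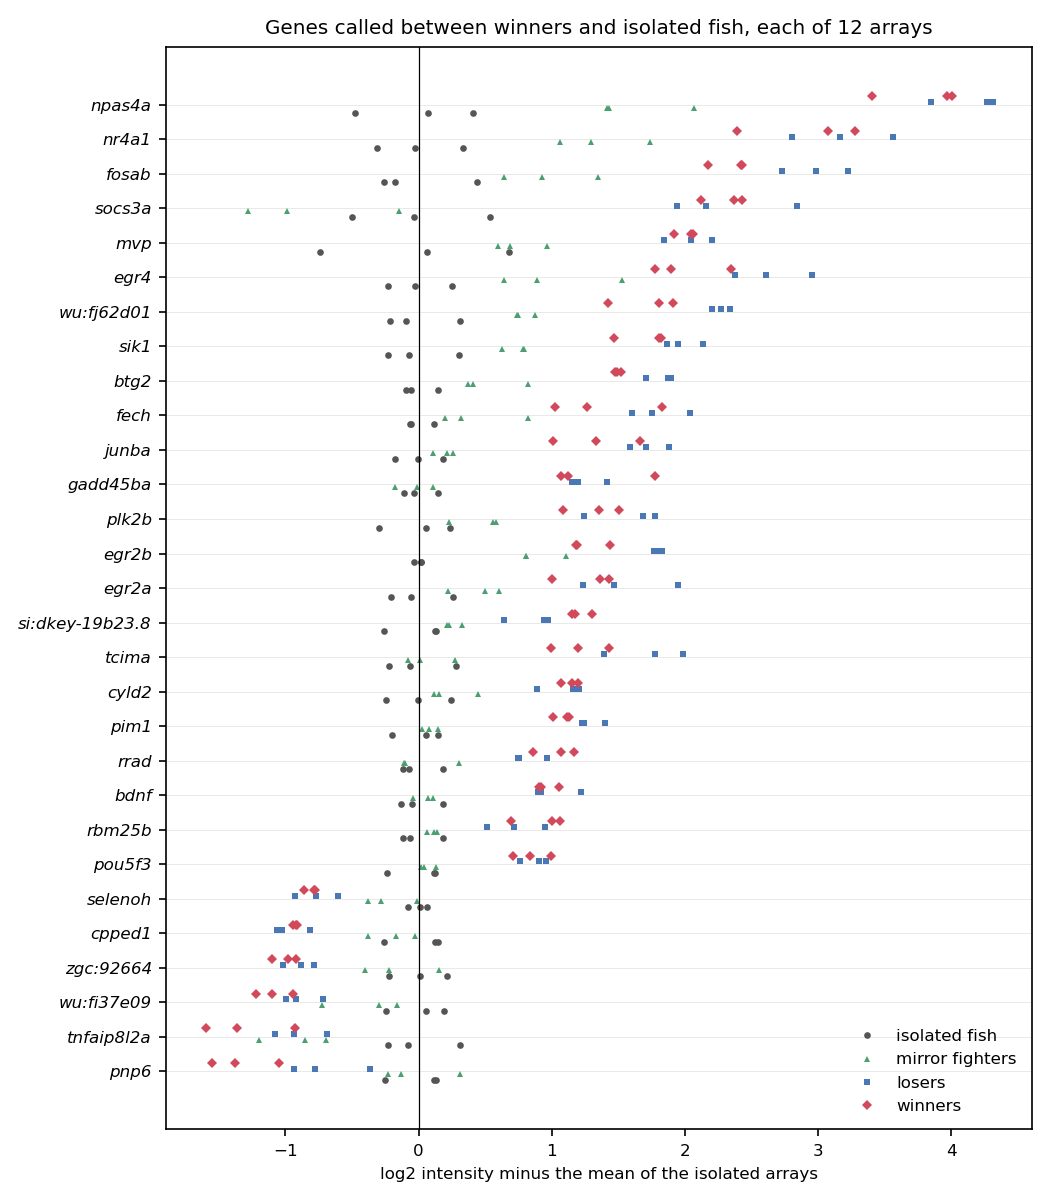
Log2 intensity of the 29 called genes on each of 12 arrays, minus the mean of the 3 isolated arrays; each point is 1 array. Winners (red diamonds) lie to one side of isolated fish (grey circles) for every gene, and npas4a shows the widest gap, 3.79.

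The kinase genes pim1 and plk2b and the GTPase gene rrad rose. The gene pim1 encodes a serine/threonine kinase that in mammals is induced by cytokine signals, and it belongs to the immediate early list. Its log2 intensity was 8.90, 9.15 and 9.24 on isolated arrays 1 to 3 and 10.23, 10.21 and 10.11 on the winner arrays. The winner arrays lay close together and above all isolated arrays. The gene rose 2.12-fold, by a log2 difference of 1.08 ± 0.13 (SE, limma adjusted p = 0.00611), and remained called whichever of the 12 arrays was left out. It was not called when only the 2 groups were fitted. The gene plk2b encodes a polo-like kinase whose mammalian counterpart is induced by neuronal activity and acts at synapses. It read 7.35, 6.82 and 7.17 in isolated fish and 8.47, 8.20 and 8.62 in winners on the log2 scale. No winner array reached down to an isolated one, and isolated array 2 was the lowest. The log2 difference was 1.31 ± 0.20 (limma adjusted p = 0.0331), a call kept in 3 of the 12 fits without 1 array. The gene rrad encodes a small GTPase that in mammals restrains voltage-gated calcium channels. Its log2 intensity was 6.26, 6.21 and 6.51 in isolated fish against 7.50, 7.19 and 7.40 in winners. The groups were apart by more than the range within either, and the gene rose by 1.03 ± 0.16 (limma adjusted p = 0.0339), also in 3 of the 12 fits without 1 array.

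The neurotrophin gene bdnf, whose product supports synaptic plasticity and neuronal survival, was read at 8.82, 8.73 and 9.05 in isolated fish and at 9.77, 9.78 and 9.92 in winners on the log2 scale. All winner arrays were above all isolated arrays, and the rise was 1.94-fold (limma adjusted p = 0.0261). It was called in 6 of the 12 fits without 1 array. Among the 29 measured members of the list of neurotrophins and other growth factor signals, bdnf was the only one called. Of the others, the platelet-derived growth factor gene pdgfaa gave a log2 difference of -0.66 ± 0.16 and the fibroblast growth factor gene fgf8a one of -0.67 ± 0.18 (limma adjusted p = 0.111 and 0.122). The list's median was 0.08, against -0.03 over all genes. Of its members 18 were above 0 and 11 below, and the largest difference, 2.41, belonged to a gene that was not called. Without overlap, 4 were above (13.8%, where all genes gave 10.1%) and 4 below (13.8%, where all genes gave 16.3%).

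Among regulators of transcription and signalling, tcima, cyld2, pou5f3 and rbm25b rose. The gene tcima encodes a small regulator of transcription and immune responses. Its log2 intensity was 8.21, 7.86 and 7.71 in isolated fish and 9.36, 9.12 and 8.92 in winners. The lowest winner stood above the highest isolated array, and the difference was 1.21 ± 0.20 (limma adjusted p = 0.0475). A brighter probe set of tcima, which was not called, gave 1.01 ± 0.18 (limma adjusted p = 0.0535). The gene pou5f3, known in zebrafish as a POU factor of the early embryo, read 5.65, 5.64 and 5.29 in isolated fish and 6.36, 6.24 and 6.52 in winners. Isolated array 3 was the lowest of the 6. The rise of 0.85 ± 0.14 (limma adjusted p = 0.0475) was the smallest among the named genes that rose, and it was lost in each of the 12 fits without 1 array. The gene rbm25b, for an RNA-binding splicing factor, read 6.74, 6.79 and 7.04 against 7.85, 7.92 and 7.55. Winner array 3 was the closest to the isolated arrays, and the difference was 0.92 ± 0.16 (limma adjusted p = 0.0499). The gene cyld2, related by name to the deubiquitinase CYLD, was measured by a dim probe set at 3.25, 3.01 and 3.50 in isolated fish and 4.32, 4.40 and 4.45 in winners. The groups did not overlap, and the difference was 1.14 ± 0.16 (limma adjusted p = 0.0241). In the fits without 1 array tcima and rbm25b were each called 1 time of 12, and cyld2 6 times.

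The vault particle gene mvp, which encodes the main protein of a large cytoplasmic ribonucleoprotein, had the largest called rise outside the immediate early list. It read 3.76, 5.18 and 4.57 in isolated fish and 6.42, 6.55 and 6.56 in winners on the log2 scale. The isolated arrays spread widely (SD 0.71) and the winner arrays hardly (SD 0.08). The rise was 4.02-fold, a log2 difference of 2.01 ± 0.29 (limma adjusted p = 0.0261), called in 7 of the 12 fits without 1 array. The gene fech encodes ferrochelatase, the last enzyme of haem synthesis, and its dim probe set read 2.59, 2.58 and 2.76 against 3.67, 3.91 and 4.47. Winner array 3 was the highest. The difference was 1.37 ± 0.23 (limma adjusted p = 0.0499), called in 1 of the 12 fits. It was the only called gene of the haem and erythroid list, whose median was 0.10 over 22 genes. Erythrocyte markers overlapped between the groups: their mean log2 level over 4 genes was 8.95 to 10.05 in winners and 9.40 to 10.005 in isolated fish.

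A pair of uncharacterised genes rose in every fit without 1 array, though neither was called when only the 2 groups were fitted. The gene wu:fj62d01 read 6.58, 6.18 and 6.06 in isolated fish and 8.08, 8.18 and 7.70 in winners, a log2 difference of 1.71 ± 0.17 (limma adjusted p = 0.0026). The gene si:dkey-19b23.8 read 6.94, 6.55 and 6.95 against 7.98, 7.96 and 8.11, a difference of 1.21 ± 0.15 (limma adjusted p = 0.00801). For both, every winner array lay above every isolated array by more than the isolated range. Of the 29 called genes 9 were called whichever array was left out, and these were the only ones of them outside the immediate early list.

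All 6 genes that fell lay outside the immediate early list. The gene pnp6 encodes a member of the purine nucleoside phosphorylase family, which recycles purines. It read 6.46, 6.10 and 6.48 in isolated fish and 4.97, 4.80 and 5.30 in winners on the log2 scale. The highest winner was below the lowest isolated array, and the gene fell by 1.33 ± 0.21 on the log2 scale (limma adjusted p = 0.0457). The dim tnfaip8l2a, whose mammalian relative restrains immune cells, read 4.78, 5.32 and 4.94 against 4.08, 3.42 and 3.65. Winner array 1 was nearest to the isolated arrays, and the log2 difference was -1.30 ± 0.22 (limma adjusted p = 0.0499). The selenoprotein gene selenoh, linked to redox control in the nucleus, read 8.65, 8.51 and 8.60 against 7.72, 7.80 and 7.80. Both groups were tight, and it fell to 0.571 of its isolated level (limma adjusted p = 0.0499).

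The phosphatase gene cpped1 read 7.54, 7.56 and 7.16 in isolated fish and 6.50, 6.49 and 6.47 in winners. The winner arrays agreed within an SD of 0.02, and the gene fell by 0.93 ± 0.15 on the log2 scale (limma adjusted p = 0.0458). The uncharacterised zgc:92664 read 8.90, 9.10 and 8.66 against 7.78, 7.91 and 7.96, and wu:fi37e09 read 8.18, 8.32 and 7.89 against 7.03, 6.91 and 7.19. Neither pair of groups overlapped, and they fell by 1.00 ± 0.17 and 1.09 ± 0.18 (limma adjusted p = 0.0499 and 0.0475). The falls depended on single arrays. In the 12 fits without 1 array cpped1 and wu:fi37e09 were each called 2 times, and pnp6, tnfaip8l2a, selenoh and zgc:92664 each 1 time. All 6 were lost in most of the alternatives tried. Over all probe sets, 1 was called lower without isolated array 1, loser array 1 or mirror fighter array 1. Without isolated array 2 limma called 15 rises and 0 falls, with 1917 probe sets at an unadjusted p under 0.05.

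Just outside the threshold, at an adjusted p from 0.05 to 0.1, 12 probe sets were higher and 36 lower. The 12 genes with the smallest p in each direction among those not called are given as values only. The lower ones included the cyclin gene ccnb3, on 6.07, 6.27 and 6.50 in isolated fish and 4.99, 4.95 and 5.18 in winners (-1.24 ± 0.21, limma adjusted p = 0.0502). The growth-control factor mycn read 7.96, 8.20 and 8.42 against 6.77, 7.43 and 7.10 (-1.09 ± 0.20, adjusted p = 0.0757), and the ribosome biogenesis gene rrs1 6.44, 6.68 and 6.52 against 5.34, 5.81 and 4.84 (-1.22 ± 0.24, adjusted p = 0.0901). No winner array reached an isolated one in these genes, which was a condition of their choice. The neurotrophic factor gene nenf gave -0.80 ± 0.16, the lysosomal membrane gene glmp -0.60 ± 0.11 and the cytochrome P450 gene cyp3c1 -0.97 ± 0.17. The remaining lower genes, hebp2, trim47, zgc:174906, cpsf3, anxa4 and tspan9b, had adjusted p-values of 0.0608 to 0.0901. Among the higher ones, the orphan nuclear receptor nr2e1, a keeper of neural progenitors in mice, read 6.90, 7.16 and 6.77 against 8.17, 7.79 and 7.86 (0.99 ± 0.18, adjusted p = 0.0608). The active zone gene rims2a read 10.68, 10.69 and 11.02 against 11.65, 11.52 and 11.54 (0.77 ± 0.14, adjusted p = 0.0608). The splicing cofactor gene arglu1b gave 0.58 ± 0.11, the chaperonin gene cct2 0.61 ± 0.12, the polyamine enzyme gene sat1a.1 0.88 ± 0.18 and the phosphatase gene dusp5, which acts on ERK kinases, 0.81 ± 0.17. The other higher ones were dedd, myef2, sltm, crybb1 and the further probe sets of tcima and gadd45ba, none with an adjusted p above 0.103.

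Gene groups were read through 34 lists, with 1 probe set per gene, the brightest. Lists and members were chosen with earlier results of these data known, so the shares within lists are descriptive and are no test. Over all 8793 genes the median log2 difference was -0.03, 0.318% of genes were called (0.25% higher and 0.0682% lower), 10.1% had all winner arrays above all isolated arrays and 16.3% had them below. The immediate early list had a median of 0.74 over 40 genes, 12 of them called, all higher. Outside it, 5 list members were called: bdnf and fech among the rises, and pnp6, selenoh and tnfaip8l2a among the falls. Since 0.318% of all genes were called, a list without a call gives no result about its members. The median kept its sign in every alternative tried for 15 of the 34 lists: immediate early genes, stress axis, sex steroids, GABA and glycine, vesicles, postsynaptic scaffold, proteasome, glycolysis, antioxidants, DNA replication, progenitors, oligodendrocytes, microglia, interferon and meninges. For the other 19 the median has no settled direction.

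**Figure D3:**
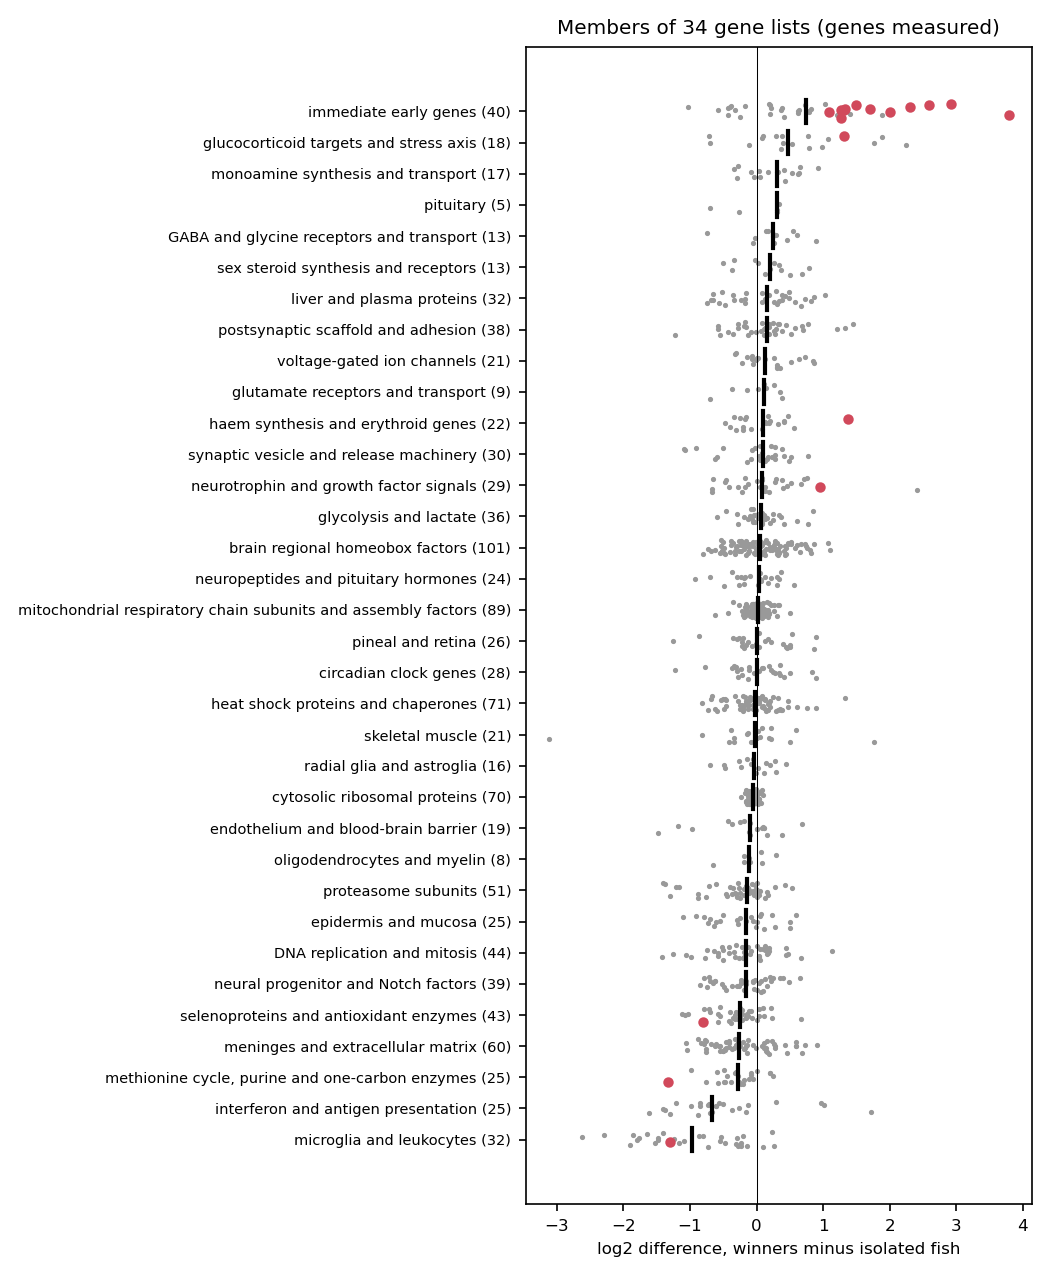
Log2 difference (winners minus isolated fish) of the members of 34 gene lists, 1 point per gene, with called genes in red and the list median as a black line. Medians run from 0.74 for immediate early genes to -0.98 for microglia and leukocytes.

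Genes of synapses and transmitter systems had medians above that of all genes, and none of them was called, where all genes gave 0.318%. Probe sets of the brightest eighth had a median of 0.11, with 17.4% above without overlap. Among 38 genes of postsynaptic scaffolds and adhesion 8 were above without overlap (21.1%, where all genes gave 10.1%) and 3 below. Their median of 0.16 was 0.03 without isolated array 1 and 0.25 without isolated array 3. The scaffold gene dlg1a read 7.95, 8.22 and 8.04 in isolated fish and 8.89, 8.93 and 8.70 in winners (0.77 ± 0.17, limma adjusted p = 0.106). The neuroligin gene nlgn1 gave 1.21 ± 0.34 and the scaffold gene homer3b -0.43 ± 0.14 (limma adjusted p = 0.133 and 0.167). Among 30 vesicle and release genes, with a median of 0.10 (0.04 without isolated array 1 and 0.18 without winner array 1), rims2a differed by 0.77, and vamp5 and vamp8, vesicle fusion genes known outside neurons in mammals, by -0.90 ± 0.21 and -1.08 ± 0.34. Among 21 voltage-gated channel genes the sodium channel subunit scn3b differed by 0.85 ± 0.20, and the list's median was 0.13. The median was 0.25 over 13 genes of GABA and glycine signalling, where gad2, which makes GABA, gave 0.60 ± 0.19. It was 0.11 over 9 genes of glutamate signalling, where the receptor subunit gria2b gave 0.39 ± 0.15, and 0.31 over 17 genes of monoamines, where the dopamine receptor genes drd3 and drd2a gave 0.43 ± 0.13 and 0.53 ± 0.20. The adjusted p of each of these 5 lay between 0.111 and 0.203. The monoamine and ion channel medians turned to below 0 with the hybridization controls as a covariate, and the glutamate median without isolated array 1 or winner array 2 and after quantile normalization. Neuronal markers summarised over 6 genes stood at 11.96 to 12.19 in winners and 11.50 to 12.01 in isolated fish, and their part in these medians was not tested.

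Among 24 neuropeptide and pituitary hormone genes the median was 0.04. Without overlap, 3 were above (12.5%, near the 10.1% of all genes) and 3 below (12.5%, where all genes gave 16.3%). The granin gene scg2a, whose product is stored in secretory granules, read 10.67, 10.69 and 11.18 in isolated fish and 11.31, 11.57 and 11.36 in winners (0.57 ± 0.16, limma adjusted p = 0.132). The peptide genes nmba and gnrh3, for neuromedin B and a gonadotropin-releasing hormone, gave -0.92 ± 0.27 and -0.50 ± 0.17 (limma adjusted p = 0.145 and 0.169). Among 13 genes of sex steroid synthesis and reception the median was 0.20. The gene hsd17b4, a steroid dehydrogenase by name, read 7.32, 7.39 and 7.58 against 8.12, 8.13 and 8.09. It differed by 0.68 ± 0.15 and was not called (limma adjusted p = 0.105). The steroid-binding globulin gene shbg gave 0.50 ± 0.15. No winner array of hsd17b4 or shbg overlapped an isolated one.

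The 18 glucocorticoid targets and stress axis genes differed by a median of 0.47, and 15 of them were above 0. The list's only called member was gadd45ba, which also belongs to the immediate early list. Of the 18, 6 had all winner arrays above all isolated arrays (33.3%, where all genes gave 10.1%). The factor cebpd read 5.46, 5.28 and 6.13 in isolated fish and 6.50, 7.01 and 9.01 in winners, and the Krüppel-like factor klf9, named after its values were seen, 7.13, 6.70 and 7.56 against 9.09, 7.80 and 11.22. Winner array 3 was the highest in both by a wide margin, and their differences of 1.89 ± 0.56 and 2.24 ± 0.73 were not called (limma adjusted p = 0.145 and 0.161). The glucocorticoid-induced tsc22d3 gave 0.54 ± 0.17. The median of the list on an array, centred on its mean over 12 arrays, was 0.73 on winner array 3. It was 0.02 and -0.02 on the other winner arrays, against -0.54, -0.67 and -0.28 in isolated fish. Mirror fighters stood at 0.21, -0.03 and 0.18 and losers at 0.33, 0.08 and 0.28. Winner arrays 1 and 2 thus lay within the range of mirror fighters, and the level was not particular to winners. Among 28 clock genes the median was 0.00, the repressor nfil3-6 gave 0.89 ± 0.20 and the clock factor bmal1b 0.83 ± 0.29 (limma adjusted p = 0.111 and 0.179).

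Genes of cell division and of neural progenitors both had medians of -0.16, with members on both sides of 0. None was called, where all genes gave 0.318%. The median was -0.093 for cell division without winner array 2, and -0.085 for progenitors without isolated array 3. Among 44 genes of DNA replication and mitosis 15 had all winner arrays below all isolated arrays (34.1%, where all genes gave 16.3% and the fifth brightness eighth of probe sets 20.5%) and 4 above, and 19 had a difference above 0. The lowest p-values belonged to ccnb3, here on its brighter probe set (-0.99 ± 0.19, limma adjusted p = 0.0886), the spindle checkpoint gene bub1bb and the replication licensing inhibitor gmnn, the latter pair measured by dim probe sets. The log2 intensity of bub1bb was 5.13, 5.20 and 5.30 in isolated fish and 3.53, 3.98 and 4.33 in winners, and that of gmnn 5.25, 5.14 and 5.12 against 3.37, 3.50 and 4.36. Their differences were -1.26 ± 0.25 and -1.43 ± 0.29 (limma adjusted p = 0.0946 and 0.0958). Not all members pointed down: the mitotic activator cdc20 and the proliferation marker mki67, named after their values were seen, gave 1.13 ± 0.56 and 0.44 ± 0.17 (limma adjusted p = 0.292 and 0.205). Among 39 progenitor and Notch factors 13 were below (33.3%, where all genes gave 16.3%) and 2 above, and 14 had a difference above 0. One of the 2 was the neuronal differentiation factor neurod1, named after its values were seen (0.49 ± 0.13, limma adjusted p = 0.125). The largest difference in the list was 0.65, so the nr2e1 value of 0.99 given above was not part of it. That value, of a keeper of neural progenitors in mice, lay on the other side of 0 from the list's median. The shares of the list leave it out. The Hairy-related repressor her9 read 8.08, 8.15 and 7.79 against 7.11, 7.44 and 7.50, the proneural factor ascl1a 7.03, 7.18 and 7.09 against 5.99, 6.52 and 6.63, and the SoxB1 factor sox3 9.61, 9.56 and 9.25 against 8.51, 9.08 and 8.71. Winner array 1 was the lowest for each of the 3, and none was called (limma adjusted p = 0.111 for each, with differences of -0.66, -0.72 and -0.71). With the hybridization controls as a covariate the difference of ascl1a was 0.039. Radial glial markers over 5 genes stood at 11.41 to 11.79 in winners and 11.65 to 11.72 in isolated fish, and their part in these counts was not tested.

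**Figure D4:**
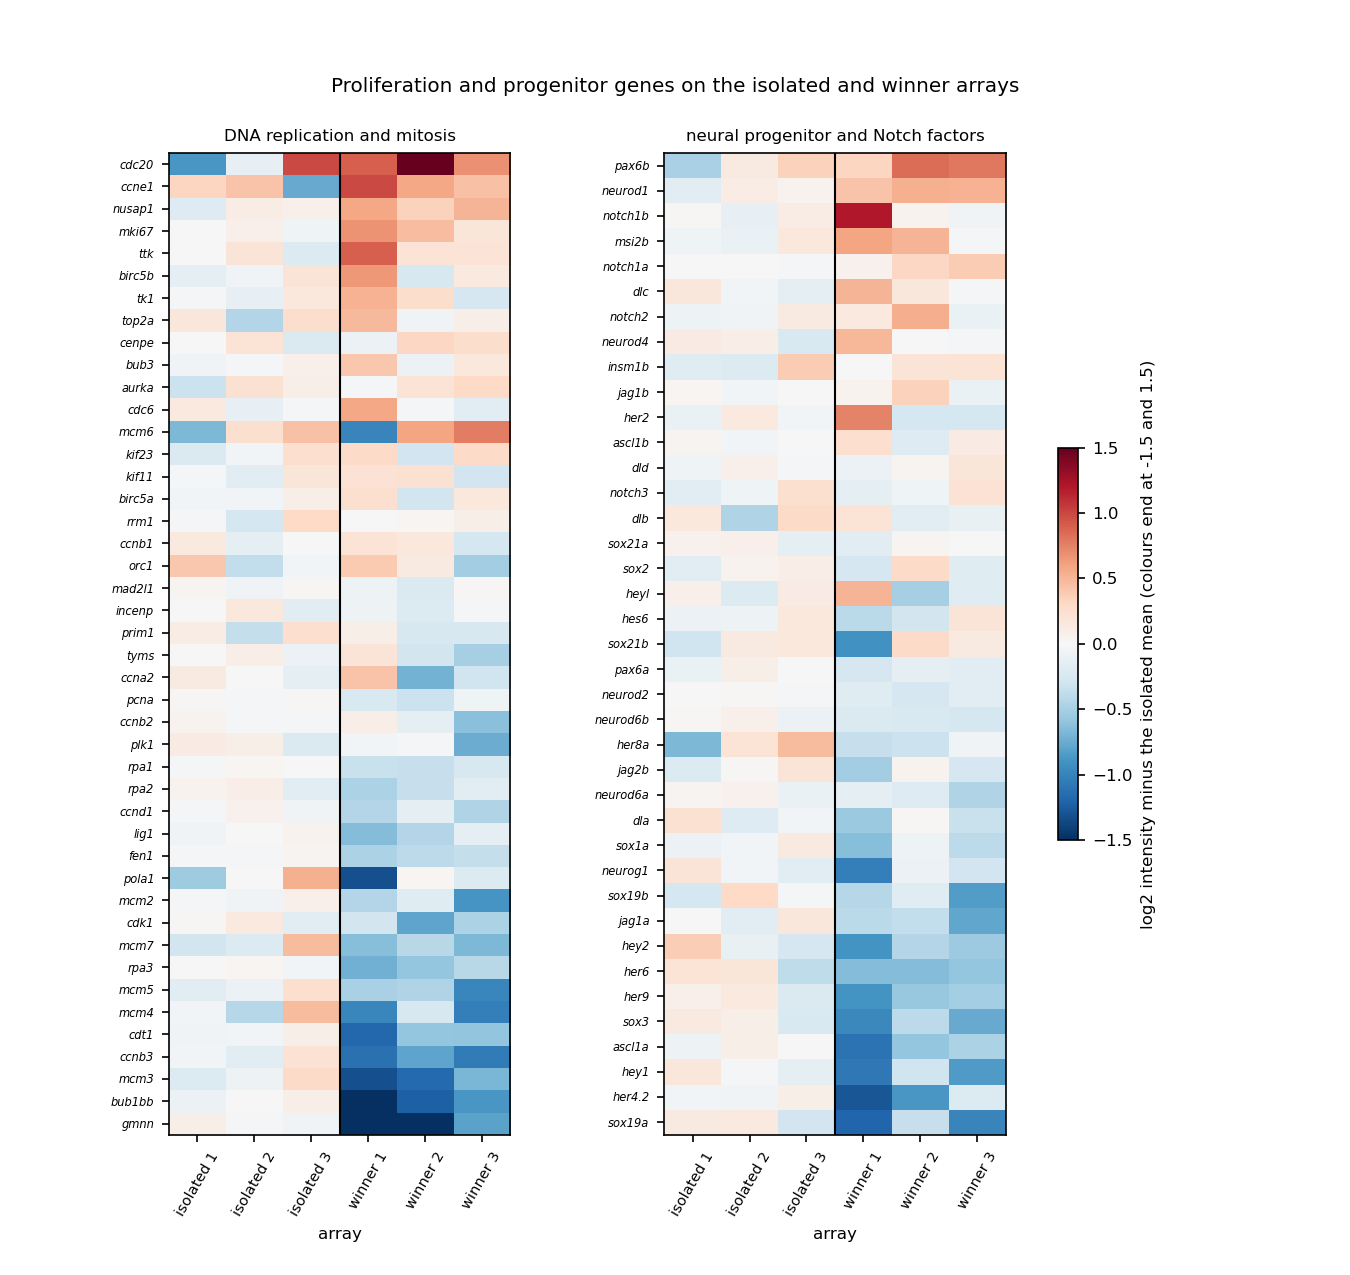
Log2 intensity of 44 genes of DNA replication and mitosis and 39 neural progenitor and Notch factors on the 3 isolated and 3 winner arrays, minus the isolated mean (colours end at -1.5 and 1.5). Of these, 15 and 13 genes have all winner arrays below all isolated arrays.

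Brain regional homeobox genes, which mark the divisions of the brain, had a median of 0.05 over 101 genes. None was called, where all genes gave 0.318%. Without overlap, 14 were above (13.9%, where all genes gave 10.1%) and 8 below (7.92%, where all genes gave 16.3%). The hypothalamic factor otpb read 8.15, 7.79 and 8.07 in isolated fish and 7.13, 7.44 and 7.38 in winners (-0.69 ± 0.16, limma adjusted p = 0.111). The posterior factor hoxd10a gave -0.73 ± 0.20 and the cofactor pbx1a 0.82 ± 0.26. The list held 36 dim genes.

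Genes of redox defence and of methionine and purine metabolism were mostly below 0. Both lists were chosen with earlier results of these data known, and each holds a called gene. Their shares describe these data and are no test. Among 43 selenoprotein and antioxidant genes 8 were above 0 and the median was -0.26. In 12 all winner arrays lay below all isolated arrays (27.9%, where all genes gave 16.3%). Besides selenoh, which fell, the glutathione transferase gene gsto2 read 8.02, 8.03 and 7.31 against 6.72, 7.07 and 7.21 (-0.78 ± 0.21, limma adjusted p = 0.122), and gsto1 gave -0.70 ± 0.21. Isolated array 3 was the lowest of its group in both. Among 25 genes of the methionine cycle, purine and one-carbon enzymes 4 were above 0, with a median of -0.28. Without overlap, 9 were below (36.0%, where all genes gave 16.3%). Besides pnp6, the adenosylhomocysteinase gene ahcy, which clears the by-product of methylation, read 7.08, 7.06 and 7.48 against 6.42, 6.63 and 6.29 (-0.76 ± 0.18, limma adjusted p = 0.111), and the methyltransferase gene gnmt gave -0.49 ± 0.18. The median of this list was 0.18 with the hybridization controls as a covariate, and that of the antioxidant list stayed below 0 in every alternative tried.

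Proteasome, ribosome, chaperone, respiratory chain and glycolysis genes had medians between -0.14 and 0.07. None of them was called, where all genes gave 0.318%. The median was -0.14 over 51 proteasome subunits, 12 of them above 0 (-0.27 without isolated array 3). Here psmd7 and psmd10, of the regulatory particle, gave -0.76 ± 0.18 and -0.72 ± 0.17, and psmd1 gave 0.54 ± 0.18. It was -0.05 over 70 cytosolic ribosomal proteins, 14 of them above 0. Without overlap, 12 were below (17.1%, near the 16.3% of all genes). The ribosomal median turned to above 0 after median centring, as did that of the chaperones. Among 71 heat shock proteins and chaperones it was -0.02, with pdia4 of the endoplasmic reticulum at -0.59 ± 0.17 and hspa12a at 0.76 ± 0.24. Respiratory chain genes had a median of 0.03 over 89 genes, with the ATP synthase inhibitor atp5if1a at 0.50 ± 0.13 and the assembly factor ndufaf8 at -0.63 ± 0.19. Glycolysis had a median of 0.07 over 36 genes, 1 of them dim. Without overlap, 6 were above (16.7%, where all genes gave 10.1% and the brightest eighth of probe sets 17.4%). Among them were the enzyme genes pklr, pfkpa and pgk1 at 0.85, 0.61 and 0.36.

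Immune genes had the lowest medians of the 34 lists, with wide spread between arrays. Among 32 microglia and leukocyte genes 3 were above 0 and the median was -0.98 (-0.64 without winner array 1). Without overlap, 10 were below (31.2%, where all genes gave 16.3%). Only tnfaip8l2a was called. The actin regulator gene coro1a read 8.40, 8.93 and 7.73 in isolated fish and 5.72, 7.18 and 6.45 in winners (-1.91 ± 0.48, limma adjusted p = 0.112), and the chemokine receptor gene cxcr4b gave -1.25 ± 0.29. Summarised per array, the list stood at 0.44, 0.67 and 0.05 in isolated fish and -0.69, -0.02 and -0.47 in winners, so winner array 2 stood next to isolated array 3. Loser arrays ran from -0.50 to 0.53. The 6 markers of these cells averaged 6.05 to 7.12 in winners and 7.14 to 8.09 in isolated fish, and their part in the fall of tnfaip8l2a was not tested. They differed unevenly: csf1ra and apoeb gave -0.20 and -0.23, and coro1a, ptprc, lcp1 and spi1b -1.91, -1.85, -1.52 and -0.80. Only coro1a and ptprc were without overlap. Among 25 interferon and antigen presentation genes the median was -0.67, but -0.32 without isolated array 2. Of these, 3 were below without overlap, a smaller share than the 16.3% of all genes, and 2 above. Summarised per array, they stood at 0.22, 0.84 and -0.21 in isolated fish and -0.23, 0.03 and -0.63 in winners, so the groups overlapped. The cytokine signalling inhibitor socs1a gave 1.71 ± 0.43 and the NF-kB inhibitor nfkbiab 0.97 ± 0.30 (limma adjusted p = 0.112 and 0.151). The interferon regulatory factor irf1a gave 1.01 ± 0.33, and -0.61 with the hybridization controls as a covariate.

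Other non-neuronal lists were spread on both sides of 0. Among 60 genes of meninges and extracellular matrix 11 were below (18.3%, near the 16.3% of all genes) and 6 above. Their median was -0.26, and -0.10 without winner array 3. The collagen gene col18a1a gave -0.61 ± 0.14, col17a1b 0.91 ± 0.21 and the matrix gene tgfbi -0.83 ± 0.20 (limma adjusted p = 0.111 for each). Meningeal markers over 6 genes averaged 6.11 to 6.25 in winners and 6.43 to 6.76 in isolated fish, without overlap. Taken singly, only 2 of the 6 were below without overlap, col1a1a and tgfbi. The marker col1a2 gave 0.08, and none was called. The part of these markers in other differences was not tested. Endothelial genes had a median of -0.10 over 19 genes, with the endothelial factor fli1 at -1.18 ± 0.25 (limma adjusted p = 0.101). Radial glia and astroglia stood at -0.03 over 16 genes and oligodendrocytes and myelin at -0.11 over 8. Lists for tissues next to the brain gave medians of 0.30 for pituitary (5 genes), 0.01 for pineal and retina (26), -0.03 for skeletal muscle (21), -0.15 for epidermis (25) and 0.16 for liver and plasma proteins (32, of which 19 dim). No member of these 5 lists was called, where all genes gave 0.318%. Single members differed widely: the skeletal muscle list ran from -3.12 (pvalb5) to 1.76 (tnni2a.4), with limma adjusted p = 0.222 and 0.176.

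**Figure D5:**
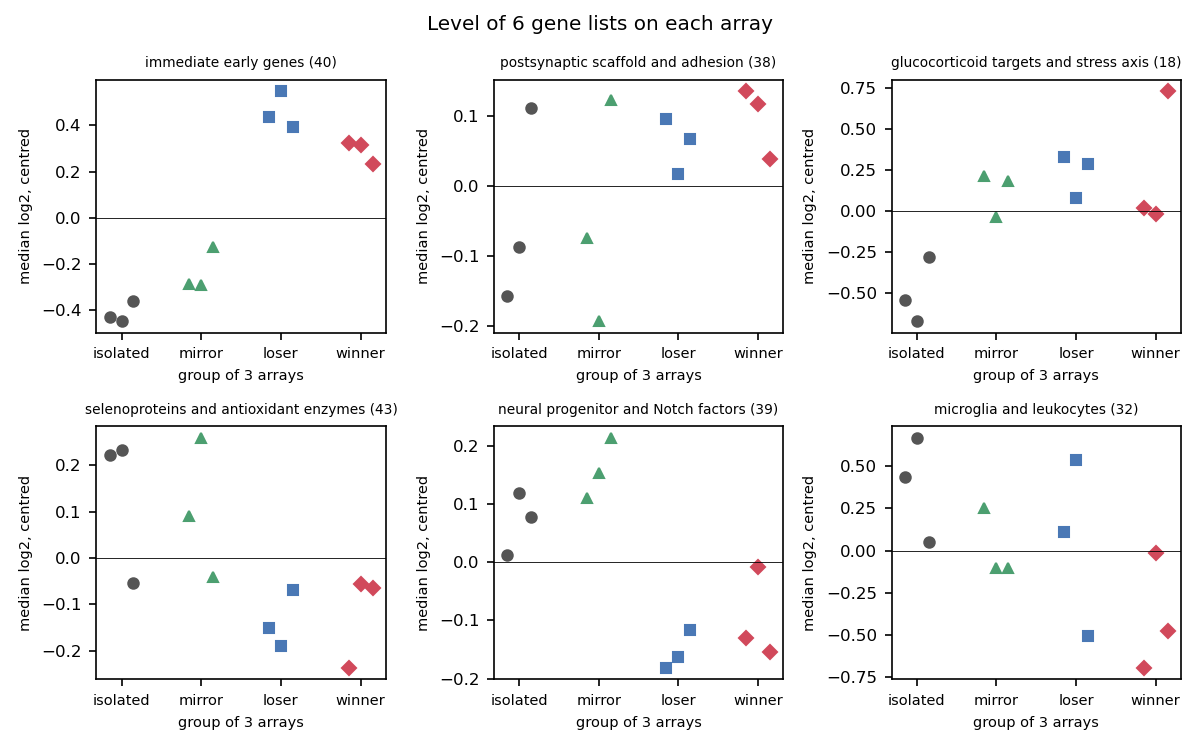
Median log2 intensity of 6 gene lists on each of the 12 arrays, after centring each gene on its mean over the 12; each point is 1 array and groups hold 3. Immediate early genes stand at 0.23 to 0.32 in winners and -0.45 to -0.36 in isolated fish. The microglia and leukocyte list stands at -0.02 on winner array 2 and 0.05 on isolated array 3.

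Winners were also set against losers and mirror fighters, for the genes named above. Since these comparisons share the winner arrays with the main one, each gene's own values are given. Against losers no probe set was called by limma (0.0%, with 642 at an unadjusted p under 0.05, 4.14%), and the smallest adjusted p was 0.387. The 29 genes gave winner minus loser log2 differences of -0.64 to 0.36. Before adjustment the 95% interval lay below 0 for 8 of them and above 0 for 1, si:dkey-19b23.8 (0.36, 95% interval 0.03 to 0.68). For pim1 the interval was -0.48 to 0.07, for bdnf -0.36 to 0.25, for mvp -0.66 to 0.61 and for pou5f3 -0.34 to 0.28. In a further fit, same-numbered winner and loser arrays were treated as paired. The array titles give only a replicate number and do not say that these were opponents. The pairing was chosen from correlations in these data. With the replicate number as a block limma again called none (0, with 755 at an unadjusted p under 0.05). The block was fitted over all 12 arrays, mirror fighter and isolated ones included. Its intervals are therefore not those of the same-numbered winner and loser arrays alone. The blocked 95% interval was -0.49 to 0.08 for pim1, -0.31 to 0.20 for bdnf, -0.62 to 0.57 for mvp, -0.36 to 0.30 for pou5f3 and 0.02 to 0.70 for si:dkey-19b23.8. It lay below 0 for 5 genes, fosab, egr2b, wu:fj62d01, tcima and pnp6, before adjustment. The winner array was below the same-numbered loser array in all 3 cases for 13 of the 29 genes, and above it in all 3 for 2 genes. Among the 13 were npas4a (-0.34, -0.27 and -0.44) and pim1 (-0.11, -0.11 and -0.39). The share of all probe sets that did so was not counted, so no result is drawn from these counts. With the block the smallest limma adjusted p of the 29 genes was 0.769. With 3 arrays per group, differences inside these intervals could not be told from none. The purine gene pnp6 read 5.41, 5.57 and 5.98 in losers, above every winner array, a difference of -0.63 (95% interval -1.10 to -0.16, limma adjusted p = 1.00, and -1.09 to -0.17 and 0.904 with the block).

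Against mirror fighters 1 probe set was called (0.00645%, with 2611 at an unadjusted p under 0.05, 16.8%). It was that of socs3a, an inhibitor of cytokine signalling, which read 6.33, 5.49 and 5.20 in mirror fighters and 8.91, 8.60 and 8.85 in winners. The difference was 3.11 (95% interval 2.35 to 3.88, limma adjusted p = 0.043), and mirror arrays 2 and 3 lay below all isolated arrays. Of the genes outside the immediate early list, bdnf read 8.83, 8.93 and 8.97 in mirror fighters, within the isolated range, and differed from winners by 0.91 (95% interval 0.61 to 1.22, limma adjusted p = 0.077). The difference was 1.14 for tcima, 1.00 for rrad and 0.78 for pou5f3 (limma adjusted p = 0.0919, 0.0809 and 0.0967). Of the 6 genes that fell, pnp6 differed from mirror fighters by -1.31 (95% interval -1.78 to -0.84) and selenoh by -0.58 (95% interval -0.88 to -0.28). The differences were -0.84 for zgc:92664, -0.74 for cpped1 and -0.69 for wu:fi37e09. The dim tnfaip8l2a gave -0.38 (95% interval -0.86 to 0.10). None of these 6 was called against mirror fighters. The call of socs3a was lost without isolated array 1 or 3, loser array 1 or 3, or winner array 1 or 2, where limma called 0, with 1814 to 2771 probe sets at an unadjusted p under 0.05.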

How the data were processed

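Whole-brain RNA was hybridized to one-colour Affymetrix GeneChip Zebrafish Genome Arrays, from 100 ng of total RNA per the labels' protocols. The values are the deposited series table, linear signal intensities per probe set with a floor of 1. The summary and normalization method is not given in the sources used here, and the submitters' processing notes name only Partek 6.6. The design text and the extraction protocol name different RNA extractions.

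Log2 was taken with no offset and 115 control probe sets were left out. The 12 arrays were fitted together in limma 3.58.1 (R 4.3.3), each group having its own mean (8 residual and 2.55 prior degrees of freedom). All tests were two-sided, with Benjamini-Hochberg adjustment over 15502 probe sets per comparison and calls under 0.05. Single control values were compared by exact permutation. The code was tested on simulated data.

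The platform annotation gave 10795 probe sets 1 symbol, 135 several and 4572 none. Names were updated through gene identifiers found for 10711 in a RefSeq table of GRCz12tu, with no coordinates used. Genes to name were drawn from every called gene with 1 symbol (smallest p per gene) and from the 12 smallest p-values per direction among uncalled, bright probe sets without overlap. Each list added its called members and 3 smallest p-values. The text prints only some of the list members and of the called immediate early genes, so those shown are a selection. Members and lists were chosen with earlier results of these data known. The ribosomal and heat shock lists were trimmed by name after the data were seen. A list's level on an array is the median of its members' log2 values after centring each on its 12 arrays; marker levels are plain means of log2 values.

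Alternatives covered scaling, an offset of 32, the dim filter, moderation, the arrays fitted, probe set averaging, a replicate block, control level as a covariate and leaving out each array. Same-numbered winner and loser arrays deviated together (correlations 0.112, 0.111 and 0.233), so these were treated as paired. Winner and isolated arrays were not (0.184, 0.058 and -0.015). These correlations are of deviations from group means of 3 arrays, which is weak evidence of pairing. The array titles name no opponents. The number of arrays limits the precision.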

Additional observations from a re-analysis of the deposited data

Results flagged for a closer look

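The effect against isolation differed between winners and mirror fighters for socs3a, the gene of a cytokine signalling inhibitor: winners exceeded mirror fighters by a log2 difference of 3.11 (limma adjusted p = 0.043), with all 3 winner arrays above and 2 of 3 mirror fighter arrays below every isolated array.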

How the results depend on the processing

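For winners against isolated fish, 38 probe sets were called. The count became 65 with 32 added before log2, 59 without the dimmest 25%, 23 without moderation, 3 with only the 2 groups compared and 0 with a covariate for the hybridization controls, where 1579 had an unadjusted p under 0.05. It ran from 15 to 39 over the fits that left out 1 array. With the replicate number as a block it was 27, though winner and isolated arrays were not treated as paired. Against losers the count of 0 became 1 with only the 2 groups compared and 0 to 2 without 1 array. It was 0 with the replicate block over all 12 arrays (755 at an unadjusted p under 0.05). Against mirror fighters the count of 1 became 4 after quantile normalization, 3 after median centring, 31 with 32 added, 19 without the dimmest 25%, 30 with trend and robust moderation, 3 without moderation, 3 with probe sets averaged, 0 with only the 2 groups compared, with the replicate block or with the covariate (2379, 2816 and 1603 at an unadjusted p under 0.05) and 0 to 5 without 1 array. The causes were not tested. None of the 29 called genes changed sign in any alternative, while 14 were lost in most alternatives. These 14 were all 6 genes that fell, with egr2a, plk2b, rrad, tcima, cyld2, pou5f3, rbm25b and fech. Of 34 list medians 15 kept their sign throughout.

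List medians changed sign under several alternatives. For single named genes, signs turned only with the control covariate, and only for genes that were not called: ahsg1 -0.29, ank1a -0.57, apoa1a -0.29, aqp1a.1 0.52, ascl1a 0.039, bmal1b -0.49, cga -0.68, clockb -0.16, drd2a -0.042, exorh -0.13, fgf8a 0.016, gsto1 0.12, hspa12a -0.58, irf1a -0.61, nmba 0.40, otx5 -0.23, pomca 0.21, slc6a11a -0.92 and tnni2a.4 -0.37.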
